A study of Homo sapiens with 12 samples.

Results

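The genes described here are those of the SLC25 family, the carrier proteins of the mitochondrial inner membrane, as they were expressed in HCT116, a human cell line established from a colon carcinoma. Members were the protein-coding genes whose GENCODE v29 symbol starts with SLC25A. GENCODE v29 holds 48 such genes, on 19 chromosomes, and 43 of them were among the 16676 genes listed in the deposited table. SLC25A2, SLC25A18, SLC25A31, SLC25A47 and SLC25A52 were not listed and were not analysed here.

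SLC25 carriers are small proteins of repeated helix pairs that sit in the inner mitochondrial membrane, with a few members in other membranes. Most exchange one metabolite for another, such as ADP for ATP or malate for 2-oxoglutarate. Because the inner membrane lets few solutes through unaided, these proteins set which substrates of respiration, the urea cycle, heme, iron-sulfur cluster and nucleotide metabolism can pass between the matrix and the cytosol.

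The study compared 3 kinds of HCT116 cell: WT cells, cells with a knockout of the long non-coding RNA SPARCLE (KO), and cells that over-express it (OE). Each kind was cultured for 48 h with 1 µM doxorubicin (dox) added or without it (control). Doxorubicin is an anthracycline that poisons topoisomerase II and breaks DNA. The 6 groups held 2 biological replicates each, named a and b, and all of them came from the 1 cell line. The labels do not say which clones the KO and OE cells were, what drove the over-expression or how the knockout was made, so p-values against WT measure only the spread between these replicates.

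Strand-specific total RNA libraries were sequenced, and levels are given as TPM, a unit that corrects for gene length and library size. Libraries held 12594294 to 18564275 recovered reads in control and 24882466 to 30676890 with dox. Every dox library was thus deeper than every control library, and depth cannot be told apart from dox. Between 64.8 and 75.6% of the TPM belonged to 328 small RNA genes, and the median shift of a library's genes against all libraries was -0.26 to 0.22 on the log2 scale. SPARCLE itself had 0 reads in all 4 WT and KO control libraries, and 384 and 622 reads in the OE control libraries. With dox the WT libraries had 0 and 3 of its reads, the KO libraries 4 and 1 and the OE libraries 430 and 487, so its reads separated OE from the other lines and did not separate KO from WT at this depth. Of the epithelial markers, EPCAM stood at 90.2 to 163 TPM and CDH1 at 28.0 to 46.3 TPM, whereas VIL1 stayed under 1 TPM and CEACAM5 was not listed. None of the 5 leukocyte markers was listed, and 1 of 5 fibroblast markers (COL1A1, 1.04 to 6.19 TPM) and 1 of 3 endothelial markers (VWF, at most 0.373 TPM) were.

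The promoters of the carrier genes are described first, with a short sequence in them counted by the response to dox. RefSeq (GRCh38.p14) gave a promoter for 36 of the 43 listed members, and the 250 bases before the annotated start were searched. The letters CCAAT, on either strand, are the core of the CCAAT box, which the factor NF-Y binds. They were in 18 of the 36 member promoters. By response, this was 6 of the 6 matched members that fell with dox over the 3 lines, 3 of 13 that rose and 7 of 14 that were not called. In all 7 tested members fell, not all of them with a matched promoter. The calls of SLC25A1 and SLC25A6 did not hold under every alternative. Over all tested genes with a promoter, CCAAT was in 31.0% of those that rose, 41.2% of those that fell and 35.3% in all. Of the 6 that fell, only SLC25A1, SLC25A4 and SLC25A36 had a match wholly upstream of every GENCODE exon in the window. In SLC25A6, SLC25A25 and SLC25A27 the matches reached into an exon or lay past one. The same held for SLC25A13 and SLC25A21, which rose. All of this is a description of these windows, the motif was chosen with the expression results known, and no test was made of it.

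Printed below are the parts of these windows upstream of every GENCODE exon, for 3 genes that fell and 1 that rose. They are written 5′ to 3′ on the gene's strand, with CCAAT or its reverse complement ATTGG in capitals. The first 3, of SLC25A4 (chr4:185143016-185143240, plus strand), SLC25A36 (chr3:140941586-140941829, plus strand) and SLC25A1 (chr22:19178831-19178986, minus strand), belong to genes that fell. The last, of SLC25A38 (chr3:39383120-39383323, plus strand), belongs to a gene that rose.
SLC25A4: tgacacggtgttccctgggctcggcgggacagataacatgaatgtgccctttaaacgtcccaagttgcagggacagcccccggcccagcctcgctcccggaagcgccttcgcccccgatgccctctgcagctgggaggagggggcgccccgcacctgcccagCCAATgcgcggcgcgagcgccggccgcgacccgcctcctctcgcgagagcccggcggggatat
SLC25A36: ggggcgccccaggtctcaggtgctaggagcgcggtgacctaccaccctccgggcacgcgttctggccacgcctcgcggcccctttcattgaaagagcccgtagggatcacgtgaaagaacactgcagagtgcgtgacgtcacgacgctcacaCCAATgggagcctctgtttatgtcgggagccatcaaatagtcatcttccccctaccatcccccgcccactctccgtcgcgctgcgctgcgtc
SLC25A1: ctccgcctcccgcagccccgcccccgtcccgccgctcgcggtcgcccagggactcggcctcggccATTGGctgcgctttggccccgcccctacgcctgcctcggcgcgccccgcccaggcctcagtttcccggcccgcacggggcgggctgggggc
SLC25A38: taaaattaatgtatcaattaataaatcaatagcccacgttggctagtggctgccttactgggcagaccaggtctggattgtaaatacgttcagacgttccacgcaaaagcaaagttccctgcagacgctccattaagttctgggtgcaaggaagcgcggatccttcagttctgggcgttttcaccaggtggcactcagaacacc

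In SLC25A4 the match lay 88 bases before the RefSeq start, in SLC25A36 98 bases and in SLC25A1 185 bases, the last on the reverse strand. The promoters of the members were also rich in G and C, with a median of 66.4% against 58.0% over all 27305 promoters in the table, and a median of 22 CpG dinucleotides against 11. The GC box (GGGCGG) was in 27 of 36 member promoters, against 42.3% of all promoters. The E-box (CACGTG) was in 6 of 36 against 6.49% of all, and the cyclic AMP response element (TGACGTCA) in 3 of 36 against 1.77%. The NRF1 site was in 0 of 36, against 1.13% of all promoters. All motifs were searched on both strands, and the base composition of the windows differs between members and other genes. The members are listed genes, whereas the 27305 promoters include genes that were not listed. These contrasts therefore do not set the members against other expressed genes.

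Across the 12 libraries, the listed members ranged from 0.110 TPM (SLC25A45) to 408 TPM (SLC25A5). SLC25A5 (ENSG00000005022, chrX:119468400-119471319), the ADP/ATP translocase ANT2, stood far above the rest. Its TPM was 381 and 330 for WT, 324 and 393 for KO and 320 and 316 for OE in control medium, and with dox 408 and 388 for WT, 373 and 278 for KO and 347 and 267 for OE. The dox and control libraries of KO and OE overlapped, and the difference over the 3 lines was -0.01 on the log2(TPM + 1) scale (95% interval -0.28 to 0.25). SLC25A5 alone made up 32.9 to 41.4% of the summed TPM of the family in control libraries and 30.5 to 36.6% with dox. That sum was 837 to 1003 TPM in control and 809 to 1173 TPM with dox, and the ranges overlapped. These are levels per RNA of whole cultures, in which fewer expressing cells and less RNA per cell cannot be told apart. GENCODE v29 also holds 40 processed or other copies named as SLC25A pseudogenes, 9 of them of SLC25A5 and 6 of SLC25A6. None of these copies was listed. SLC25A6 itself lies in a part of the X chromosome that is also present on the Y chromosome, and only its X entry was used. How reads shared with any of these copies were counted is not given in the sources used here. The level of SLC25A6 against that of SLC25A5 is therefore uncertain.

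After SLC25A5 came SLC25A39 and SLC25A3, and these were the 3 members with a mean of at least 50 TPM. A further 16 had a mean of 10 to 50 TPM, 18 of 1 to 10 TPM and 6 under 1 TPM. SLC25A3, the phosphate carrier that supplies ATP synthase, was at 118 and 105 TPM for WT, 83.8 and 99.4 for KO and 90.2 and 84.9 for OE in control medium. With dox it was at 123 and 107 for WT, 102 and 94.6 for KO and 99.9 and 80.5 for OE, which overlapped the control range. Its difference over the lines was 0.06 (95% interval -0.18 to 0.30). By the mean over the 12 libraries, the lowest levels were those of SLC25A34, SLC25A35, SLC25A48 and SLC25A53, which did not reach a TPM of 1 in 2 libraries and were not tested. SLC25A21 and SLC25A45 reached that level through their dox libraries alone, so their place among the 39 tested members depended on their response, and counts are also given without them. The fewest reads of a tested member in a library were 9, for SLC25A21, and the most for SLC25A3 were 18894.

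Dox was first compared with control over the 3 lines together, with each line weighted equally. In limma, 16 of the 39 tested members rose (41.0%) and 7 fell (17.9%) at an adjusted p under 0.05, against 32.2% and 25.9% of all 15256 tested genes. In either direction the share was 59.0%, against 58.0% of all genes. Without SLC25A21 and SLC25A45 the counts were 14 higher and 7 lower of 37. The median difference was 0.29 over the members and 0.09 over all genes. Leaving out any 1 library gave counts of 18 to 23, and 18 of the 23 calls held under every alternative tried. The exceptions included SLC25A1, SLC25A6, SLC25A22 and SLC25A30, each of which lost its call without at least 5 single libraries. Of the 16 tested members that were not called, 7 were called under at least 1 alternative. SLC25A20 was called under 4 (smallest adjusted p = 0.0023 in limma), SLC25A12 under 3, SLC25A23, SLC25A26 and SLC25A42 under 2 each, and SLC25A14 and SLC25A16 under 1 each.

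The groups by transported substance differed in composition. Of 8 tested carriers of amino acids and their derivatives, 4 rose and 0 fell (median 0.45). Of 5 carriers of carboxylates, keto acids and acylcarnitines, 3 rose, SLC25A21 among them, and 1 fell (median 0.73). Among 7 carriers of adenine nucleotides, 1 rose and 3 fell (median -0.22), and among 8 carriers of other nucleotides and cofactors, 3 rose and 1 fell (median 0.13). Carriers of phosphate, iron and glutathione gave 1 higher and 1 lower of 5 (median 0.06), and the uncoupling-protein branch 1 higher and 1 lower of 3 (median 0.29). All 3 tested members of the last group, outer membrane and unassigned carriers, rose, but only 3 of its 7 listed genes were tested and SLC25A45 was among them. Differences between these groups were not tested.

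**Figure D1:**
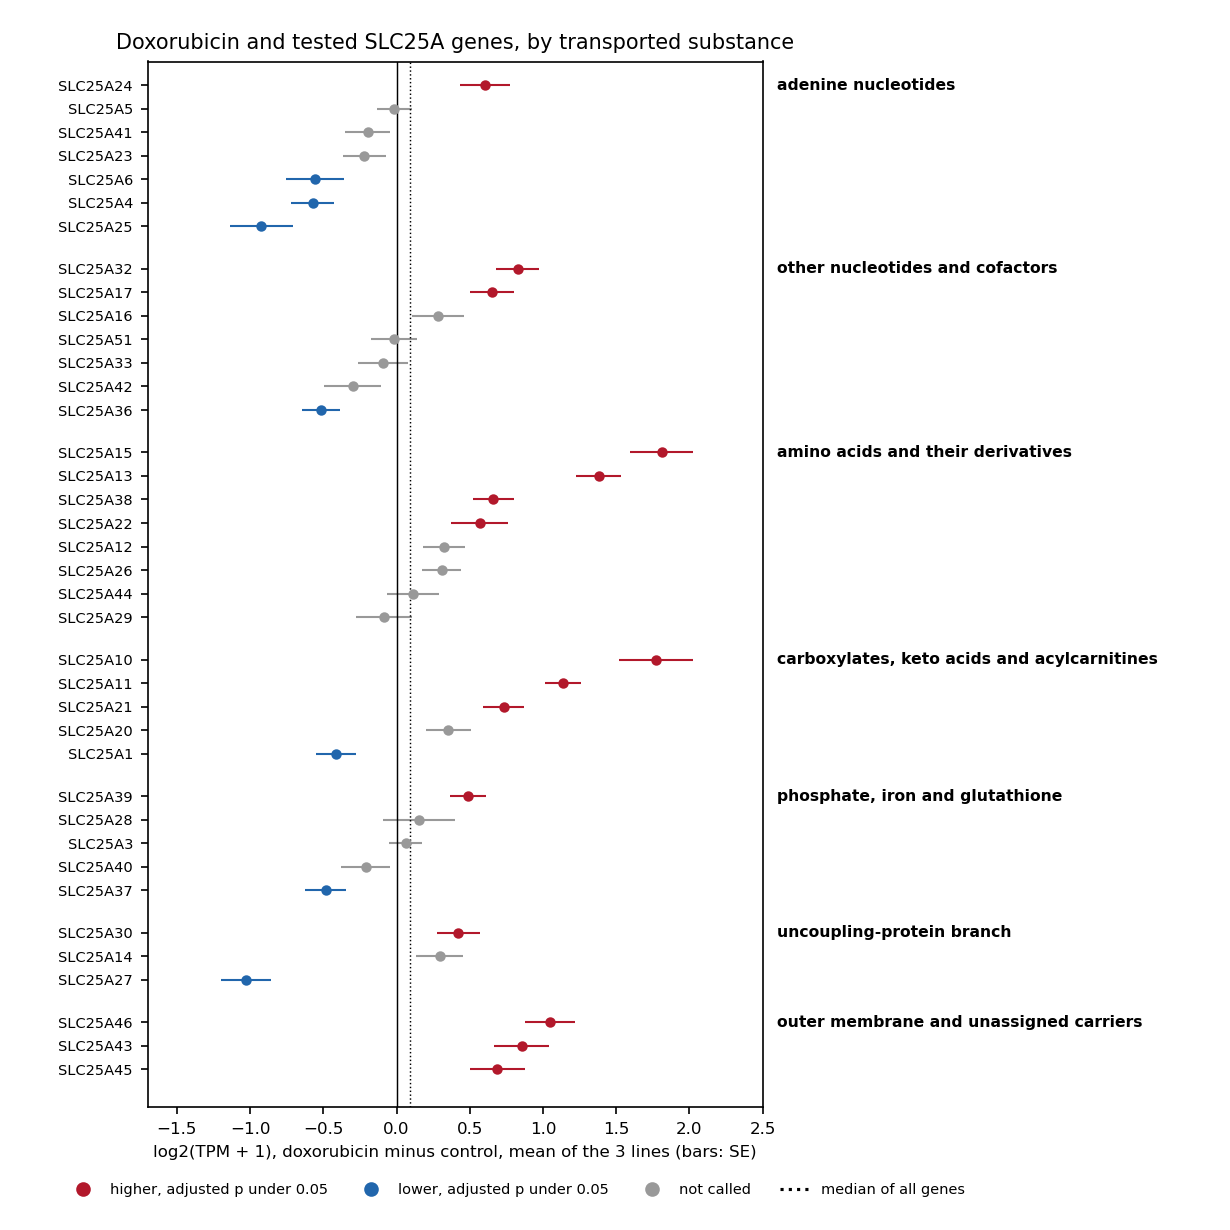
Difference between dox and control on the log2(TPM + 1) scale, as the mean of the 3 lines with limma's SE, for 38 of the 39 tested members ordered within 7 groups by what they carry. Red points rose and blue points fell at an adjusted p under 0.05, grey points were not called, and the dotted line is the median of all genes, 0.09; the 2 highest points are SLC25A15 (1.81) and SLC25A10 (1.77) and the 2 lowest SLC25A27 (-1.03) and SLC25A25 (-0.92).

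Among the carriers of amino acids, the ornithine carrier SLC25A15 (ENSG00000102743, chr13:40789412-40810111), which brings ornithine into the matrix for the urea cycle, rose most. Its TPM was 4.65 and 4.04 for WT, 7.41 and 3.55 for KO and 5.95 and 4.57 for OE in control medium. With dox it was 21.7 and 20.6 for WT, 26.7 and 15.7 for KO and 25.2 and 12.3 for OE. Every dox library lay above every control library, and the KO and OE replicates differed from each other more with dox than those of WT did. The mean TPM was 4.05 times the control mean, and limma gave a difference of 1.81 (SE 0.21, adjusted p = 2.1e-05). SLC25A29, a carrier of basic amino acids that also accepts ornithine, had a difference of -0.09 (95% interval -0.50 to 0.32) and was not called.

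The aspartate/glutamate carriers SLC25A13 (citrin) and SLC25A12 (aralar) export aspartate in the malate-aspartate shuttle, which moves reducing equivalents into mitochondria. SLC25A13 (ENSG00000004864, chr7:96120220-96322147) had a TPM of 2.64 and 3.93 for WT, 5.99 and 4.20 for KO and 3.86 and 3.65 for OE in control medium. With dox it stood at 9.99 and 12.6 for WT, 13.3 and 12.5 for KO and 13.2 and 10.3 for OE, above every control library. SLC25A13 rose by 1.38 (SE 0.15, adjusted p = 1.3e-05 in limma). SLC25A12 had a control range of 4.94 to 7.75 TPM (median 6.10, n = 6) and a dox range of 6.79 to 9.17 TPM (median 8.08, n = 6), which overlapped across lines but not within any line. Its difference, 0.33 (95% interval 0.02 to 0.64), missed the threshold after adjustment in limma (adjusted p = 0.068). In all 6 control libraries SLC25A12 exceeded SLC25A13, and in all 6 dox libraries SLC25A13 exceeded SLC25A12.

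SLC25A38, which supplies glycine for the first step of heme synthesis, stood at 11.9 and 17.2 TPM for WT, 14.3 and 12.9 for KO and 14.1 and 10.99 for OE in control medium. Its dox values were 22.9 and 25.2 for WT, 23.1 and 20.8 for KO and 22.9 and 17.0 for OE. The groups were apart within each line, and limma gave a rise of 0.66 (SE 0.14, adjusted p = 0.0015). The glutamate carrier SLC25A22 rose by 0.57 (SE 0.20, adjusted p = 0.025), a call lost in 6 of the 18 alternatives. SLC25A26, which imports the methyl donor S-adenosylmethionine, was not called (0.31, 95% interval 0.02 to 0.60), although its 6 dox libraries (4.53 to 5.56 TPM) all lay above its 6 control libraries (3.34 to 4.49 TPM). The branched-chain amino acid carrier SLC25A44 had a difference of 0.11 (95% interval -0.27 to 0.50).

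Of the carriers of carboxylates, SLC25A10 (ENSG00000183048, chr17:81712236-81721016), the dicarboxylate carrier that exchanges malate or succinate for phosphate, stood at 2.28 and 4.20 TPM for WT, 12.5 and 3.29 for KO and 8.98 and 5.08 for OE in control medium. With dox it reached 17.5 and 15.6 for WT, 20.8 and 22.1 for KO and 26.5 and 21.4 for OE. All dox libraries were above all control libraries, and KO control replicate a was the highest of the control libraries. The median gene was also highest in that control library, at a log2 shift of 0.20. The rise was 1.77 (SE 0.25, adjusted p = 8.1e-05 in limma). On the same strand, 46.6% of the exon bases of SLC25A10 also belong to exons of AC139530.2, a protein-coding gene that rose by 1.17 (adjusted p = 5.0e-05 in limma), so the reads of these 2 genes are uncertain and their separate part in the rise was not tested.

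SLC25A11 (ENSG00000108528, chr17:4937130-4940251), the 2-oxoglutarate/malate carrier of the malate-aspartate shuttle, had the smallest adjusted p of the family. Its control TPM was 10.4 and 10.6 for WT, 16.2 and 14.8 for KO and 13.7 and 12.1 for OE, against 30.8 and 34.9, 29.1 and 30.4, and 29.5 and 22.8 with dox. No dox library fell within the control range, and the rise was 1.14 (SE 0.12, adjusted p = 1.0e-05 in limma). RNF167, on the opposite strand, overlaps 9.14% of its exon bases and rose by 0.71 (adjusted p = 0.00089 in limma), and the strand setting of the counting is not given in the sources used here.

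SLC25A21, which carries 2-oxoadipate from lysine breakdown, was at 0.569 and 0.442 TPM for WT, 0.389 and 0.237 for KO and 0.342 and 0.297 for OE in control medium. With dox it was at 1.62 and 1.23 for WT, 1.78 and 1.05 for KO and 1.52 and 0.679 for OE. The 6 dox values lay above the 6 control values, from 9 to 121 reads per library, and the mean TPM ratio was 3.47. On the opposite strand, PAX9 overlaps 13.0% of its exon bases and SLC25A21-AS1 15.8%. PAX9 stood at 2.36 to 3.38 TPM in control and 1.18 to 2.34 TPM with dox, and any part of its reads in SLC25A21 was not tested. Because SLC25A21 passed the filter on low values through its dox libraries alone, its test in the filtered fit is no support. With no filter limma gave a difference of 0.73 (SE 0.13, adjusted p = 0.00040). The carnitine/acylcarnitine carrier SLC25A20 was not called (0.35, 95% interval 0.02 to 0.69). SLC25A1, the citrate carrier that exports citrate for fatty acid synthesis, went the other way: its TPM was 47.9 and 56.6 for WT, 51.4 and 61.6 for KO and 64.2 and 55.04 for OE in control medium. With dox it was 35.0 and 47.8 for WT, 44.8 and 40.1 for KO and 51.1 and 34.5 for OE. The groups were apart within each line, if narrowly in WT, and SLC25A1 fell by 0.41 (SE 0.14, adjusted p = 0.021 in limma), with an adjusted p of up to 0.072 when single libraries were left out.

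**Figure D2:**
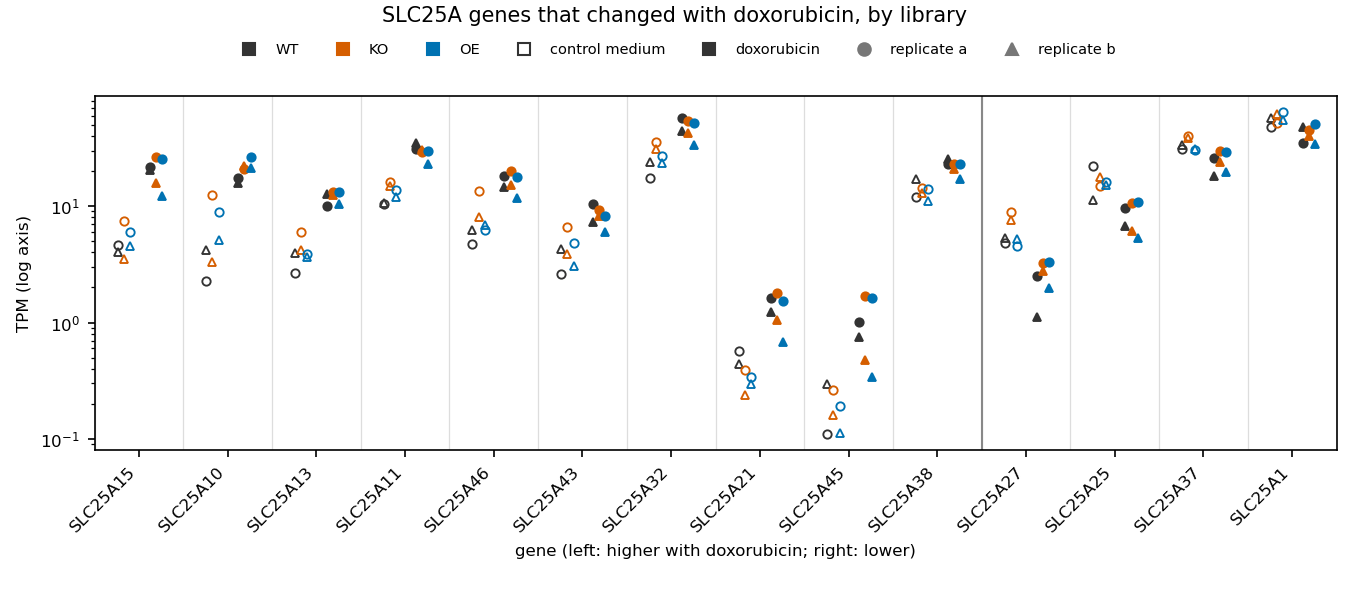
TPM on a log axis of members called over the 3 lines whose dox and control libraries did not overlap within any line, with the 10 largest rises at the left and the 4 that fell at the right. Each point is 1 library (open, control; filled, dox; circles, replicate a; triangles, replicate b; black, WT; orange, KO; blue, OE); SLC25A15 goes from 3.55 to 7.41 TPM in control to 12.3 to 26.7 TPM with dox.

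The adenine nucleotide carriers did not move as a group. Besides SLC25A5, the ADP/ATP translocases are SLC25A4 (ANT1, the main form of heart and muscle) and SLC25A6 (ANT3). SLC25A4 (ENSG00000151729, chr4:185143241-185150382) was at 12.5 and 9.84 TPM for WT, 17.4 and 13.9 for KO and 12.2 and 11.7 for OE in control medium. Its dox values were 11.6 and 7.91 for WT, 8.49 and 7.29 for KO and 8.10 and 6.67 for OE. The groups were apart in KO and OE and overlapped in WT, and SLC25A4 fell by 0.57 (SE 0.15, adjusted p = 0.0048 in limma). SLC25A6 ranged from 15.2 to 37.0 TPM in control (median 19.97, n = 6) and from 9.89 to 22.3 TPM with dox (median 14.1, n = 6). It fell by 0.56 (SE 0.20, adjusted p = 0.027), a call lost in 6 of 18 alternatives, with an adjusted p of up to 0.088.

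The ATP-Mg/phosphate carriers adjust the adenine nucleotide pool of the matrix, 3 of them under control of calcium. Of these, SLC25A24 rose by 0.60 (SE 0.17, adjusted p = 0.0085 in limma), from 4.48 to 10.3 TPM (median 6.12, n = 6) to 8.24 to 13.2 TPM (median 9.82, n = 6). SLC25A25 (ENSG00000148339, chr9:128068201-128109245) moved oppositely, from 22.3 and 11.2 TPM for WT, 14.98 and 17.6 for KO and 16.1 and 15.04 for OE in control medium to 9.57 and 6.77, 10.6 and 6.10, and 10.8 and 5.27 TPM with dox. All of its dox libraries were below all control libraries, and SLC25A25 fell by 0.92 (SE 0.21, adjusted p = 0.0026). Its antisense gene SLC25A25-AS1, which overlaps 13.5% of its exon bases, had a difference of 0.67 in limma. The control libraries of SLC25A25-AS1 would not have passed the filter on low values without its dox libraries. Its test in the filtered fit is therefore no support for an opposite move. SLC25A23, the most abundant of the 4, had a difference of -0.22 (95% interval -0.54 to 0.10), and SLC25A41 one of -0.20 (95% interval -0.53 to 0.14).

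Of the cofactor carriers, SLC25A32, which brings folate or FAD into the matrix, was at 17.3 and 23.8 TPM for WT, 35.4 and 30.8 for KO and 27.0 and 23.6 for OE in control medium. With dox it was at 56.8 and 44.0 for WT, 54.2 and 42.3 for KO and 51.8 and 33.5 for OE. The groups were apart in each line, and limma gave a rise of 0.83 (SE 0.15, adjusted p = 0.00047), while DCAF13, which overlaps 11.1% of its exon bases on the other strand, had a difference of -0.07 and was not called. SLC25A17, a carrier of coenzyme A and related cofactors in the peroxisome, rose by 0.65 (SE 0.15, adjusted p = 0.0027). The pyrimidine nucleotide carrier SLC25A36 fell by 0.52 (SE 0.13, adjusted p = 0.0045), from 17.7 to 30.8 TPM (median 26.8, n = 6) to 14.2 to 19.99 TPM (median 17.8, n = 6). The other pyrimidine nucleotide carrier, SLC25A33 (-0.09, 95% interval -0.46 to 0.28), the coenzyme A carriers SLC25A42 (-0.30, -0.72 to 0.12) and SLC25A16 (0.28, -0.10 to 0.67), and the NAD carrier SLC25A51 (-0.02, -0.35 to 0.32) were not called.

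The carriers of iron and glutathione split by member. SLC25A39, which imports glutathione, rose by 0.49 (SE 0.12, adjusted p = 0.0042 in limma), from 74.4 and 83.5 TPM for WT, 109 and 105 for KO and 103 and 88.7 for OE in control medium to 141 and 120, 151 and 120, and 152 and 111 TPM with dox. All dox libraries were above all control libraries. SLC25A40, its close relative, had a difference of -0.21 (95% interval -0.57 to 0.15). Mitoferrin-1 (SLC25A37), one of the iron importers, was at 30.8 and 33.6 TPM for WT, 40.2 and 38.2 for KO and 30.3 and 31.2 for OE in control medium, and at 26.0 and 18.0, 29.5 and 23.7, and 29.1 and 19.6 TPM with dox. Every dox value was below every control value, and SLC25A37 fell by 0.48 (SE 0.14, adjusted p = 0.0099). Mitoferrin-2 (SLC25A28) had a difference of 0.15 (95% interval -0.38 to 0.69), and its KO control replicate a, at 22.5 TPM, stood above the other 11 libraries.

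In the uncoupling-protein branch, SLC25A27 (UCP4; ENSG00000153291, chr6:46652915-46678193), known mainly from brain, had the largest fall among the tested members on the log2(TPM + 1) scale. Its TPM was 4.86 and 5.35 for WT, 8.86 and 7.59 for KO and 4.50 and 5.24 for OE in control medium, and with dox 2.49 and 1.12 for WT, 3.24 and 2.78 for KO and 3.29 and 1.98 for OE. No dox library reached the control range, and SLC25A27 fell by 1.03 (SE 0.17, adjusted p = 0.00026 in limma). SLC25A30 rose by 0.42 (SE 0.15, adjusted p = 0.025), a call lost in 7 of 18 alternatives. SLC25A14 had a difference of 0.29 (95% interval -0.05 to 0.64).

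SLC25A46 is a member of the outer membrane that takes part in mitochondrial shape and contact. It stood at 4.70 and 6.26 TPM for WT, 13.6 and 8.08 for KO and 6.23 and 6.85 for OE in control medium, and at 18.3 and 14.5, 19.9 and 15.1, and 17.9 and 11.7 TPM with dox. The groups were apart within each line, and the rise was 1.05 (SE 0.17, adjusted p = 0.00023 in limma). KO control replicate a was again the highest control library, as it was for the median gene. SLC25A43, a carrier with no substrate named here, rose by 0.86 (SE 0.19, adjusted p = 0.0017). Its control values were 2.62 and 4.27 TPM for WT, 6.68 and 3.84 for KO and 4.78 and 3.04 for OE, against 10.4 and 7.35, 9.29 and 8.22, and 8.28 and 5.95 TPM with dox, apart within each line. SLC25A43 lies 13.9 kb from SLC25A5 on the X chromosome. SLC25A45 went from 0.110 and 0.296 TPM for WT, 0.261 and 0.160 for KO and 0.190 and 0.112 for OE in control medium to 1.02 and 0.746, 1.67 and 0.473, and 1.64 and 0.338 TPM with dox, at 11 to 245 reads per library. It too passed the filter through its dox libraries alone, and with no filter limma gave a difference of 0.69 (SE 0.17, adjusted p = 0.0048). All dox values were above all control values. Within each line dox replicate a was above replicate b, as the median gene of these libraries was too. Its log2 shift was 0.19, 0.22 and 0.18 in dox replicate a of WT, KO and OE, and -0.05, -0.06 and -0.26 in replicate b.

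Among the members under the filter, SLC25A48 went from 0.378 to 1.13 TPM in control (median 0.740, n = 6) to 0.173 to 0.524 TPM with dox (median 0.245, n = 6), at 15 to 58 reads per library. Its mean TPM with dox was 0.397 times the control mean, against 0.409 for SLC25A27. With no filter on low values, limma gave it a difference of -0.42 (SE 0.09, adjusted p = 0.0024). SLC25A34, SLC25A35 and SLC25A53 were not called in that fit, with differences of 0.14, 0.07 and 0.07.

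Each line was then compared on its own. In WT cells, dox raised 12 of the 39 tested members (30.8%) and lowered 1 (2.56%) at an adjusted p under 0.05 in limma, against 19.6% and 12.6% of all genes, 32.2% in either direction. The 12 were SLC25A10, SLC25A11, SLC25A13, SLC25A15, SLC25A17, SLC25A21, SLC25A24, SLC25A32, SLC25A38, SLC25A39, SLC25A43 and SLC25A46, and SLC25A27 was lower. Without SLC25A21 and SLC25A45, 11 of 37 were higher. The member median was 0.28 and that of all genes 0.17. With median-ratio scaling, which moved the median of all genes from 0.17 to -0.01, the counts were 12 higher and 4 lower, 45.5% of all genes were called, and the share of all calls that were higher went from 60.9 to 49.6%. The count of 13 fell to 5 without WT control replicate a, to 7 without WT dox replicate a and to 7 without WT dox replicate b.

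In KO cells, 5 members rose (12.8%) and 2 fell (5.13%), against 9.9% and 14.3% of all genes, and the share in either direction was 17.9% against 24.2%. SLC25A10, SLC25A11, SLC25A13, SLC25A15 and SLC25A21 rose, and SLC25A4 and SLC25A27 fell. Without SLC25A21 and SLC25A45, 4 of 37 were higher. The member median was 0.15 and that of all genes -0.01. No member was called without KO control replicate b, and 3 were without KO dox replicate a. With median-ratio scaling 15 members were called, 10 higher and 5 lower, while the share of all genes called went from 24.2% to 37.2% (18.7% higher and 18.4% lower).

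In OE cells, 5 members rose (12.8%) and 0 fell, against 12.4% and 10.6% of all genes, 23.0% in either direction. They were SLC25A10, SLC25A11, SLC25A13, SLC25A15 and SLC25A46. The member median was 0.35 and that of all genes 0.11. The count was 1 without OE control replicate b, 2 without OE dox replicate a and 9 without OE dox replicate b. Median-ratio scaling gave 14 calls, 9 higher and 5 lower, with 39.0% of all genes called (19.4% higher and 19.7% lower).

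SLC25A10, SLC25A11, SLC25A13 and SLC25A15 were thus called higher in each of the 3 lines. For SLC25A15 limma gave 2.05 (SE 0.37) in WT, 1.80 (SE 0.37) in KO and 1.58 (SE 0.37) in OE. For SLC25A11 the values were 1.56, 0.90 and 0.96 (SE 0.21 each), for SLC25A13 1.53, 1.20 and 1.41 (SE 0.27 each) and for SLC25A10 2.09, 1.56 and 1.67 (SE 0.44 each). In WT these 4 calls held without any single library. In KO none of the 4 held without KO control replicate b (adjusted p from 0.066 for SLC25A15 to 0.24 for SLC25A10), and those of SLC25A10 and SLC25A11 were also lost without KO dox replicate a. In OE, SLC25A10, SLC25A11 and SLC25A15 lost the call without OE control replicate b and without OE dox replicate a, and SLC25A13 kept it. Counting libraries instead of p-values, 15 of the 39 tested members had dox libraries above the control libraries in each line with no overlap, against 23.8% of all genes, and 4 (SLC25A1, SLC25A25, SLC25A27 and SLC25A37) had them below, against 21.3%. The 15 include SLC25A21 and SLC25A45, which passed the filter through their dox libraries alone and so are no support for an excess. SLC25A48, under the filter on low values, also had its dox libraries below its control libraries in each line.

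**Figure D3:**
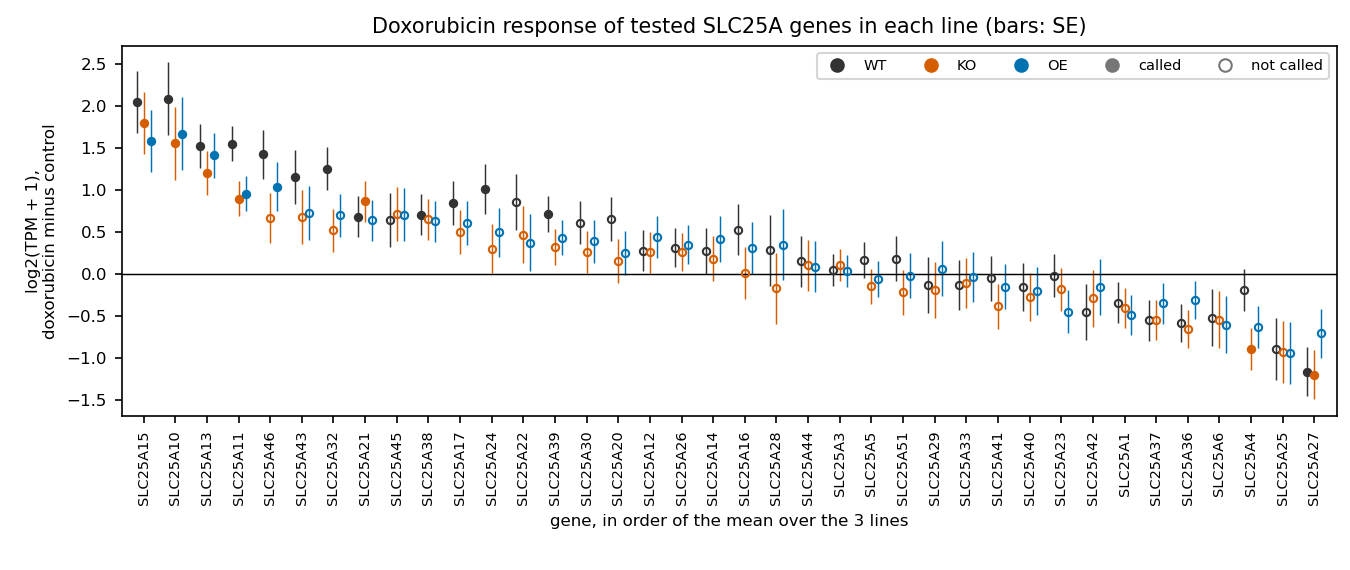
Difference between dox and control in WT (black), KO (orange) and OE (blue) cells on the log2(TPM + 1) scale, with limma's SE, for 38 of the 39 tested members in order of their mean over the lines. Filled points were called at an adjusted p under 0.05; SLC25A15, SLC25A10, SLC25A13 and SLC25A11 are filled in all 3 lines.

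SPARCLE status made no member pass the threshold. In control medium, 0 of 39 members differed between KO and WT (0.0918% of all genes did) and 0 between OE and WT (0.118% of all genes). With dox, 0 of 39 differed between KO and WT (0.295% of all genes) and 0 between OE and WT (0.315%). The interactions of KO with dox and of OE with dox, which ask whether the dox response differs from that of WT, called 0 members each (0.00655% of all genes each). At an unadjusted p under 0.05, limma gave 3 and 1 of 39 members in control medium and 0 and 0 with dox. For the interactions it gave 1 and 0. Of all 15256 genes, 1090, 767, 523, 737, 194 and 150 were under that p in the same 6 comparisons, in this order. With voom on recovered reads the member counts were 4, 3, 1, 2, 2 and 0. The 3 members of KO against WT in control medium changed in number with the library left out. They became 7 with a replicate block and 12 with crossed letters, where replicate a of WT was matched with replicate b of KO. That crossing was chosen from the correlations of these same libraries, so its count is no support. Over the alternatives the other 5 counts ranged from 0 to 6 for OE against WT in control medium, from 0 to 2 and from 0 to 4 with dox, and from 0 to 3 and from 0 to 2 for the interactions.

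The 3 members in KO against WT control were SLC25A46, SLC25A32 and SLC25A11, all higher in KO, with differences of 0.84 (95% interval 0.20 to 1.48), 0.67 (0.12 to 1.23) and 0.52 (0.06 to 0.97) and adjusted p-values of 0.61 to 0.64. The median gene also stood 0.20 higher in KO than in WT control. The 1 in OE against WT control was SLC25A36, at -0.49 (95% interval -0.98 to -0.0047, adjusted p = 0.98 in limma). SLC25A11 was also the 1 member in the KO by dox interaction, at -0.66 (95% interval -1.30 to -0.014, adjusted p = 1.00 in limma). For SLC25A15 the interaction interval was -1.38 to 0.87 in KO and -1.60 to 0.66 in OE, and for SLC25A10 -1.86 to 0.80 and -1.75 to 0.92. With 2 libraries in a group, these intervals include differences between lines as large as many of the dox responses themselves.

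Related carriers were also compared within each library, as the ratio of their TPM, which does not depend on the scaling of the library. The 10 pairs were chosen with the results of single genes known, many as a called gene over a relative that was not called. Their p-values, and whether they held with a library left out, therefore describe picked pairs. They are no support beyond the results of the single genes. Each was tested with an exact two-sided permutation of the dox and control libraries within lines, for which 216 arrangements give a smallest p of 0.0093, and p-values were adjusted over the 10 pairs. SLC25A13 over SLC25A12 went from 0.416 to 0.773 in control to 1.09 to 1.86 with dox, a mean log2 change of 1.22 (exact permutation p = 0.0093, adjusted p = 0.015). SLC25A15 over SLC25A29 went from 0.755 to 1.17 to 3.45 to 6.24, a change of 2.12 (exact permutation p = 0.0093, adjusted p = 0.015). Both ratios were higher in 6 of 6 dox libraries than in any control library.

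Within the ADP/ATP translocases, SLC25A4 over SLC25A5 went from 0.0298 to 0.0536 in control to 0.0204 to 0.0286 with dox (log2 change -0.62, exact permutation adjusted p = 0.015). SLC25A24 over SLC25A23 rose by 0.92, and SLC25A39 over SLC25A40 by 0.76, each with the same exact p and with the 6 dox libraries above the 6 control libraries. These 5 ratios kept an adjusted p under 0.05 when any 1 library was left out. SLC25A25 over SLC25A23 fell by 0.78, SLC25A36 over SLC25A33 by 0.44, SLC25A37 over SLC25A28 by 0.67 and SLC25A6 over SLC25A5 by 0.58, and SLC25A10 over SLC25A11 rose by 0.79. Those 5 each lost their call without at least 1 library, for which 108 arrangements remain, but none changed direction. SLC25A25 over SLC25A23 lost it without WT dox replicate b (exact permutation adjusted p = 0.053), with changes of -0.95 to -0.61 over the alternatives, and SLC25A37 over SLC25A28 in 10 of 13 alternatives, with changes of -0.86 to -0.48.

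**Figure D4:**
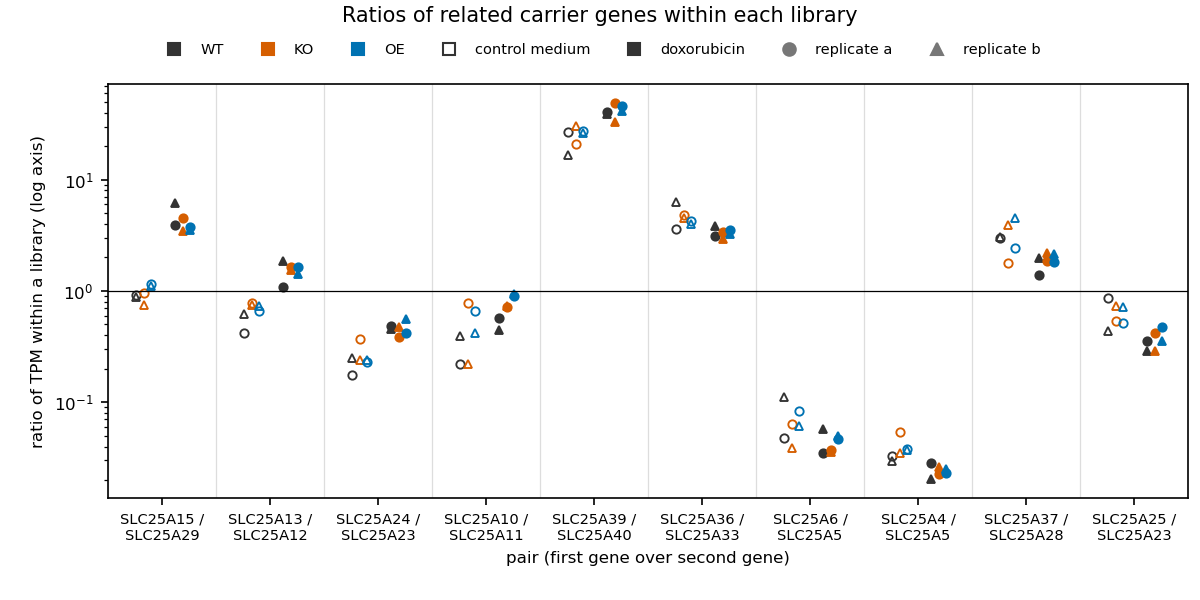
Ratio of TPM of the first to the second gene of 10 pairs within each library, on a log axis, with symbols as in the plot of TPM by library. The horizontal line marks a ratio of 1; SLC25A13 over SLC25A12 lies below it in all 6 control libraries and above it in all 6 dox libraries.

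Family members with other symbols, and the proteins that bring carriers to the membrane, were read from the same fit. Of 3 tested relatives, the outer membrane protein MTCH2 rose by 1.18 (adjusted p = 1.9e-05 in limma), whereas MTCH1 (0.01) and the uncoupling protein UCP2 (0.19) were not called. Carrier precursors enter through the TOM complex, cross the intermembrane space on small TIM chaperones and are inserted by the TIM22 complex. Of the 13 genes of this route, all tested, 7 rose and 1 fell with dox over the lines (median 0.43), against 32.2% higher and 25.9% lower of all genes, the fall being that of the receptor TOMM20 (-0.38). The channel TOMM40 rose by 1.33 (SE 0.15), and the chaperones TIMM8B by 1.30 (SE 0.13), TIMM10 by 1.15 (SE 0.16) and TIMM8A by 1.01 (SE 0.16).

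Of 20 tested inner-membrane transporters outside the family, 9 rose and 6 fell (median 0.06), again against 32.2% and 25.9% of all genes. The sideroflexins SFXN4 and SFXN2, relatives of the serine carrier, rose by 1.53 (SE 0.16) and 1.35 (SE 0.18). MCUB, the inhibitory paralog of the calcium uniporter, fell by 1.04 (SE 0.15). Of 5 genes of porins, contact proteins and a pore regulator, 3 rose and 0 fell (median 0.63), with the same shares of all genes behind them. The pore regulator cyclophilin D (PPIF), which is not an outer membrane protein, rose by 1.49. The cholesterol-binding protein TSPO rose by 0.75 and the porin VDAC1 by 0.63. Of the epithelial markers, 4 of 6 tested rose with dox and 0 fell (median 0.84, against 32.2% higher and 25.9% lower of all genes), and their summed TPM was 929 to 2040 in control and 2572 to 3227 with dox. The part of that shift in the values of the carriers was not tested, and these lists were chosen with earlier results known.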

How the data were processed

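RNA of 12 HCT116 libraries was measured, and groups were read from the sample titles. The values deposited by the authors are log2 TPM, per the file headers. The build was hg38, and edgeR 3.12.1, R 3.3.3, featureCounts, HISAT2 2.0.4 and SAMtools 1.7 were among the tools, per the submitters' processing notes. The annotation, strand setting and low-value filter are not given in the sources used here. Of 16676 identifiers, 16564 were in GENCODE v29 (same build). TPM times its exon length gave whole reads plus a small prior count for 15182 genes (91.7%, within 0.05 reads), against 5 with shuffled lengths, and all 43 listed members were recovered, 4 of them with a length found by search.

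Tests used log2(TPM + 1) for the 15256 genes that reached 1 TPM in 2 or more libraries, in 1 limma 3.58.1 model (R 4.3.3, eBayes with trend) with 6 group means over all libraries. Differences are in log2 units with limma's SE, and calls needed an adjusted p (Benjamini-Hochberg, over all genes tested) under 0.05. The fit was also run on simulated data with the same spread for every gene, which is simpler than these libraries. That run does not measure the error of the fit here. Alternatives were a pseudocount of 0.1, no filter, median-ratio scaling, small RNA genes left out, only the compared groups, a replicate block and each library left out. Chosen after seeing the data were voom on recovered reads and, for KO or OE against WT in control medium, a crossed pairing of the replicate letters. Intervals and read floors cover counting error or the spread of these libraries only. Members, lists, pairs and motifs were chosen with earlier results of these data known. Values of every library are given for members called over the 3 lines with no overlap within any line (up to 10 each way) and for the 3 with the highest mean TPM; in each other list up to 4 genes with the smallest adjusted p are named. Any beyond these, such as SLC25A4 by library, were chosen after their values were seen. Deviations of same-lettered libraries correlated from -0.39 to 0.81 over 15 pairs of groups, so the letters were taken as names, not pairs. Some items are not reported here by name, sequence or position in a plot, though counts over all members include them.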

Additional observations from a re-analysis of the deposited data

How the results depend on the processing

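Counts of called members in single lines depended on the setting, and the cause was not tested. The share of all genes called rose as well under the settings named next. In WT it went from 32.2% to 43.7% with small RNA genes left out and 44.0% with only the compared groups. With median-ratio scaling, small RNA genes left out and voom, it went from 24.2% to 37.2%, 35.0% and 38.4% in KO. In OE it went from 23.0% to 39.0%, 37.1% and 39.4%. For dox in WT the count of 13 was 21 with small RNA genes left out and 20 with only the compared groups, and 5 to 13 with single libraries left out. For dox in KO the count of 7 was 15 with median-ratio scaling, 15 with small RNA genes left out and 16 with voom on recovered reads, and 0 to 6 with single libraries left out. For dox in OE the count of 5 was 14, 15 and 15 under these settings, and 1 to 9 with single libraries left out. With the replicate block the count in OE was 9, and in WT, KO and over the 3 lines it was 18, 9 and 26, within 1.5 times the main count; deviations of same-lettered libraries correlated over 0.1 in 8 of 15 pairs of groups and under -0.1 in 3, which leaves the pairing unsettled. With 1 library left in an arm, it is assumed to vary like the other groups. Over the 3 lines the count of 23 lay between 18 and 29 under 18 alternatives. Comparisons of KO and OE with WT and both interactions gave 0 members under every alternative run, a crossed pairing of the replicates of KO or OE with WT control included. Values that changed sign were all of members not called. SLC25A3 was -0.048 with median-ratio scaling and -0.034 with voom. With small RNA genes left out SLC25A5 was 0.080 and SLC25A51 0.070. With single libraries left out, SLC25A5 ranged from -0.084 to 0.056, SLC25A28 from -0.035 to 0.34, SLC25A29 from -0.22 to 0.040, SLC25A33 from -0.21 to 0.030, SLC25A44 from -0.0015 to 0.23 and SLC25A51 from -0.12 to 0.080. Depth limits SLC25A21, SLC25A41, SLC25A45 and the 4 members under the filter, which had fewer than 20 reads in at least 1 library.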
